A study of Mus musculus with 2 samples.

Results

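The genes Otx1, Otx2, Meis1 and Meis2, a set of patterning homeobox genes, were followed through 2 lists of enrichment peaks from E14 mouse embryonic stem cells, a pluripotent line. One library came from cells transfected with a short hairpin against GFP (shGFP, the control) and the other from cells transfected with a hairpin against Dnmt3L (shDnmt3L). Dnmt3L is an inactive relative of the de novo DNA methyltransferases that stimulates them. Each group was 1 library, so no value below has a replicate error or a test. The labels name no clone, passage or time after transfection, and the level of Dnmt3L itself was not analysed here.

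The members were peaks that touched 4 fixed intervals of the mm9 genome. The interval for Otx1 was 110 kb long (chromosome 11, 21850001 to 21960000), that for Otx2 140 kb (chromosome 14, 49210001 to 49350000), that for Meis1 240 kb (chromosome 11, 18730001 to 18970000) and that for Meis2 300 kb (chromosome 2, 115640001 to 115940000). They held 11 of the 55292 shGFP peaks and 27 of the 45579 shDnmt3L peaks. Genes and intervals were chosen on values from these same lists, so the differences between the lists are descriptions of chosen regions. The files carry no gene names and no mm9 annotation was used here, so the gene names rest on the intervals, and no peak was assigned to an exon, intron or promoter.

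Otx1 and Otx2 encode homeodomain transcription factors of the bicoid type that pattern the forebrain and midbrain, and Otx2 also acts as pluripotent cells leave the naive state. Meis1 and Meis2 encode homeodomain proteins of the TALE class, which bind DNA together with Pbx and Hox proteins. Meis1 is known for its part in blood stem cells and leukaemia, and Meis2 for limb, heart and cranial neural crest development. In mammalian DNA, cytosine methylation sits mainly at CpG, a C followed by a G, and Tet enzymes oxidise 5-methylcytosine to 5-hydroxymethylcytosine. The labels call the samples MeDIP and the design speaks of 5mC, whereas the protocol describes capture with the Hydroxymethyl Collector kit, which targets 5-hydroxymethylcytosine. In what follows they are enrichment peaks, with no modification named.

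Because the captured base occurs mainly at CpG, the RefSeq promoter sequences of the genes are shown with every CpG in capitals. Promoters matched for 3 of the 4 genes, and Otx1 was without a match. Each sequence below is the 250 bases before a transcription start on build GRCm38.p6, read 5′ to 3′ on the minus strand. For Otx2, which has 4 listed starts, those with the fewest and the most CpGs are printed.
Otx2, start 1, chr14:48667645-48667894: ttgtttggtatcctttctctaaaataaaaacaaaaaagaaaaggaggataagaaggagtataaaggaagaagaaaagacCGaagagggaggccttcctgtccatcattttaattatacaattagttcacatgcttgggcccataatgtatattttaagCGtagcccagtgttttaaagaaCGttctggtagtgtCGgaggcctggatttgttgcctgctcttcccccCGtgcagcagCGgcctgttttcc
Otx2, start 3, chr14:48665110-48665359: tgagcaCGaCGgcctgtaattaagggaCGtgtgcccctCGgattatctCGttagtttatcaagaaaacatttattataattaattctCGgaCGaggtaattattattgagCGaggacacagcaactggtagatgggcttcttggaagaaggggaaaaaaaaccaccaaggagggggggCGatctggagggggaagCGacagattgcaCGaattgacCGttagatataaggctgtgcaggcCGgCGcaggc
Meis1, chr11:19018970-19019219: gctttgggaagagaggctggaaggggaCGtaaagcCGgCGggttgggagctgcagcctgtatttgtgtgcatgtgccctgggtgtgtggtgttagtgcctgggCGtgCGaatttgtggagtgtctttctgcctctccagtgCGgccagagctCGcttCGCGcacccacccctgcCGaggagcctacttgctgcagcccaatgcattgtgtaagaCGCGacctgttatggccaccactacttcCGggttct
Meis2, chr2:116064620-116064869: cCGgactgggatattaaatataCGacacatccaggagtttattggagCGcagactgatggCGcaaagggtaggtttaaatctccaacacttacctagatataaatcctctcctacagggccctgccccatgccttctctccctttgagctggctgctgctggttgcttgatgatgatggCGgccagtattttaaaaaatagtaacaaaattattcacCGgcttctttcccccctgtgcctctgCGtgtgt

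The 4 Otx2 starts had 6, 8, 14 and 9 CpGs in these 250 bases, the Meis1 start had 13 and the Meis2 start 7. CG was searched as a plain 2-letter motif, which reads the same on both strands. Over all 32851 promoters of the table the median was 6 (quartiles 2 and 16). At least as many CpGs as at Otx2 start 3 were found in 29.4% of them, and at least as many as at the Meis1 and Meis2 starts in 31.5% and 46.3%. All 6 member sequences thus lay between the median and the upper quartile. These positions are of another build than the peaks and were not converted, so whether a peak covers them is not known.

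All 4 intervals had more peaks and more covered length in the shDnmt3L list than in the shGFP list. Peaks covered 97.8 kb of the 790 kb in shDnmt3L and 21.4 kb in shGFP, a ratio of 4.56 and a difference of 76.3 kb. Over the whole genome the covered lengths were 124 Mb in shDnmt3L and 118 Mb in shGFP, a ratio of 1.05. The ratio of covered length was at least 2 in all 4 intervals, as it was in 4.8% of 5708 windows of 200 kb that tile the genome and hold at least 10 kb of peaks in both lists together. Each interval was also at least 10 kb ahead in shDnmt3L, as were 8.06% of the windows. Nothing is read from either count, because the intervals were chosen on this contrast.

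**Figure D1:**
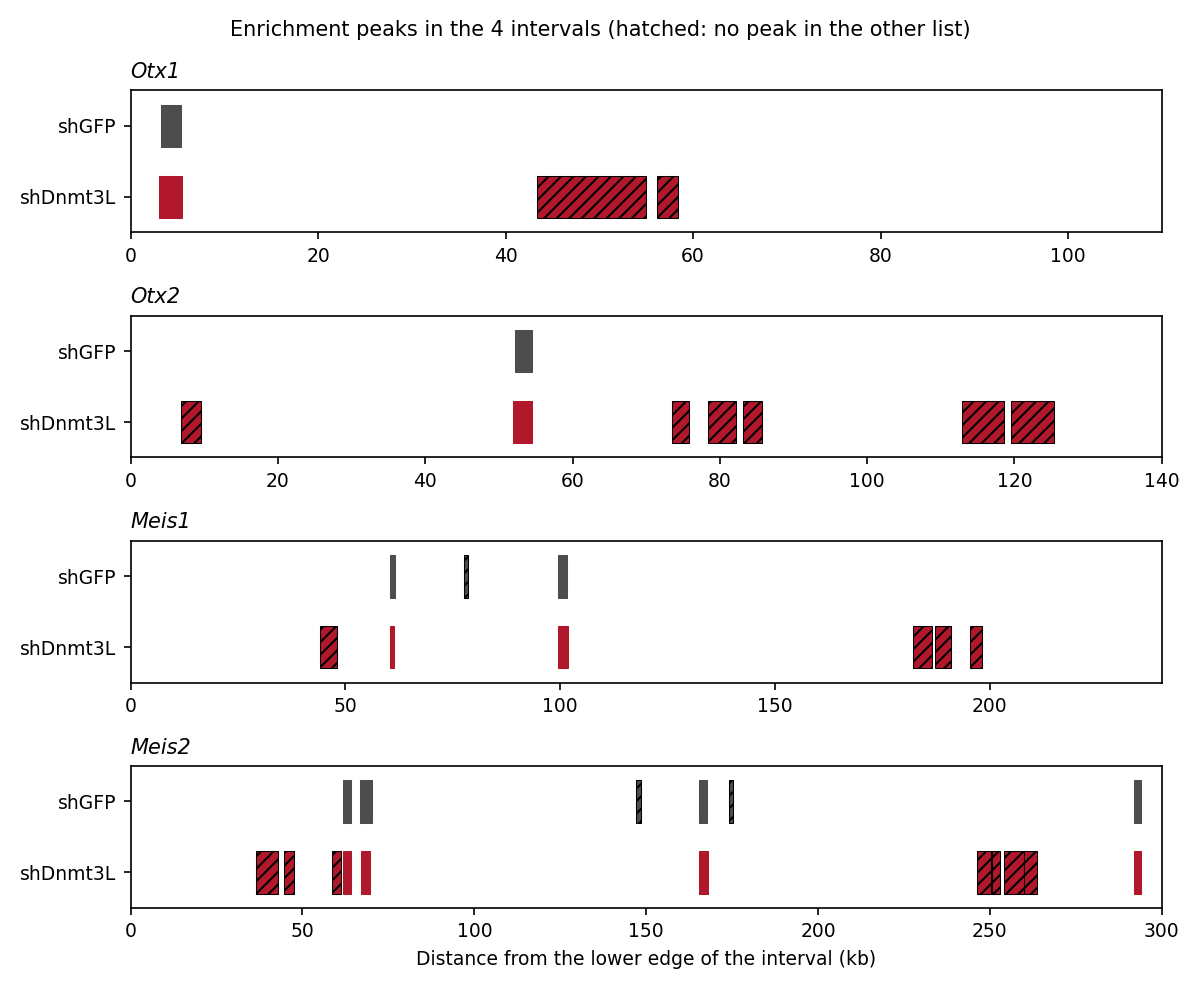
Peaks of both lists in the 4 intervals, with 1 panel per gene, the distance from the lower edge of the interval in kb on the x axis (scales differ between panels) and 1 row per library. Hatched bars have no overlapping peak in the other list. The 19 hatched shDnmt3L bars lie mostly in groups, and the 3 hatched shGFP bars are narrow and single.

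Otx1 had the widest single peak. The shGFP list held 1 peak, 2148 bp wide with a score of 259, and the shDnmt3L list held 3, with widths of 2415, 11617 and 2275 bp. The score comes from the authors' peak caller and orders peaks only within their own list. The 11.6 kb peak (21893377 to 21904993) scored 878, above 99.0% of the shDnmt3L list, and was wider than 99.7% of it. It lay 38.0 kb from the nearest shGFP peak, and a 2275 bp peak (21906106 to 21908380, score 113) followed it after a gap of 1112 bp. The peak common to both lists (shDnmt3L 21853031 to 21855445, shGFP 21853226 to 21855373) lay only 3.03 kb from the lower edge of the interval, and scored above 78.8% of the shDnmt3L list and 88.1% of the shGFP list. Covered length was 2.15 kb in shGFP and 16.3 kb in shDnmt3L, a ratio of 7.59. In the GRCm38 gene table Otx1 is 6.89 kb long and lies between the coding genes Wdpcp and Ehbp1, a length below that of the 11.6 kb peak.

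Otx2 had the highest ratio of covered length in the intervals as given. Its interval went from 1 peak of 2279 bp in shGFP to 7 peaks in shDnmt3L, and from 2.28 to 25.6 kb, a ratio of 11.3. Otx2 is 10.9 kb long in GRCm38, with Tmem260 and Exoc5 as its coding neighbours and the noncoding gene Otx2os1 directly beside it. The shDnmt3L peaks with no shGFP peak fell into a lone 2742 bp peak with the lowest member score of this list, 61.4, and 2 groups. The nearer group had 3 peaks between 49283558 and 49295745, the widest of them 3784 bp (49288351 to 49292134) with a score of 125. The other group was a pair of peaks, 5813 bp (49322834 to 49328646, score 256) and 5779 bp (49329569 to 49335347, score 235), 922 bp apart. These were the top scores of the interval and stood above 86.7% and 84.7% of the shDnmt3L list. The only shGFP peak (49262157 to 49264435) scored 123, above 63.0% of its list. Its shDnmt3L partner, 2654 bp wide, scored 134, above 65.3% of the shDnmt3L list. The ratio depended on the edges: with the interval widened by 50 kb on both sides it was 4.12, from 9.30 kb in shGFP and 38.3 kb in shDnmt3L, below the ratios of Otx1 and Meis1 in widened intervals.

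Meis1 had no peak of 5 kb or more in either library. In shGFP it held 3 peaks of 1171, 1034 and 2176 bp, with scores of 77.2, 70.6 and 89.2 (the last from 18829503 to 18831678), all below the median score of that list, 96.3. In shDnmt3L it held 6 peaks, and covered length went from 4.38 to 18.2 kb, a ratio of 4.14. The widest, 4266 bp (18912206 to 18916471, score 184), was followed after 675 bp by a peak of 3754 bp (18917147 to 18920900, score 127) and after another 4403 bp by one of 2809 bp with a score of 123. No shGFP peak lay within 80.5 kb of these 3. On the other side of the interval a peak of 3923 bp (18774043 to 18777965, score 179) lay 12.4 kb from the nearest shGFP peak. The peaks of both lists stood between these, and the top shDnmt3L score exceeded 77.5% of its list against 45.1% for the top shGFP score in its own. Meis1 spans 139 kb in GRCm38, between the coding genes Etaa1 and Spred2.

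Meis2 had the most peaks in both libraries and the lowest ratio. It held 6 peaks in shGFP and 11 in shDnmt3L, and covered length was 12.6 kb and 37.7 kb, a ratio of 2.98. The difference, 25.0 kb, was the highest of the 4 genes in the intervals as given, and with intervals widened by 50 kb it was 23.2 kb, below the 29.0 kb of Otx2. The widest shDnmt3L peak, 6377 bp (115676410 to 115682786, score 196), was followed after 1942 bp by a peak of 2678 bp, and a peak of 2552 bp stood 11261 bp further on, 529 bp before a shared peak. A group of 4 peaks, with widths of 4298, 2319, 5820 and 3747 bp, ran from 115886136 to 115903804 with gaps of 104 to 1177 bp, and no shGFP peak overlapped it. Its first peak (115886136 to 115890433) had the top score of the interval, 265, above 87.4% of the list, the 5820 bp peak (115894034 to 115899853) scored 237 and the 3747 bp peak (115900058 to 115903804) 136. The widest shGFP peak, 3233 bp (115706873 to 115710105, score 101), was narrower in shDnmt3L, at 2742 bp. The top shGFP score, 170, belonged to the peak from 115805365 to 115807759 and stood above 76.3% of the shGFP list. Its shDnmt3L partner scored 145, above 68.8% of the shDnmt3L list. When peaks scoring below 100 were left out of both lists, the Meis2 ratio was 4.53. This cutoff kept 48.0% of the shGFP list and 49.5% of the shDnmt3L list. Because scores order peaks only within a list, the same cutoff need not mean the same in both. Meis2 is 206 kb long in GRCm38, with BC052040 and Tmco5 as coding neighbours.

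The surplus in shDnmt3L was made of peaks that the shGFP list did not have, and hardly of wider shared peaks. An overlap of at least 1 bp counted as shared. Of the 27 shDnmt3L peaks, 19 had no shGFP peak (70.4%), against 12.6% of the whole shDnmt3L list. Neighbouring peaks are not independent and the intervals were chosen on this contrast, so the share is given with no interval and nothing is read from the gap. By gene these were 2 of 3 for Otx1, 6 of 7 for Otx2, 4 of 6 for Meis1 and 7 of 11 for Meis2. They made up 79.4 kb, or 81.2% of the shDnmt3L length in the intervals. In the other direction, 3 of 11 shGFP peaks had no shDnmt3L peak, or 27.3%, near the 25.5% of the whole shGFP list. These 3, 1 at Meis1 and 2 at Meis2, were 1034 to 1458 bp wide with scores of 53.0 to 70.6.

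The other 8 shGFP peaks paired with 8 shDnmt3L peaks, and their widths were much alike. Summed over the 8 pairs the shDnmt3L peaks were 0.698 kb longer, out of a total difference of 76.3 kb. The single differences, shDnmt3L minus shGFP, were 267 bp at Otx1 and 375 bp at Otx2. At Meis1 they were -154 and 205 bp, and at Meis2 185, -491, 174 and 137 bp. Thus 6 of 8 pairs were wider in shDnmt3L, as were 81.7% of all 37952 pairs of the genome, and the median difference was 179.5 bp against 145 bp genome-wide. The ratio of widths lay between 0.848 and 1.17.

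**Figure D2:**
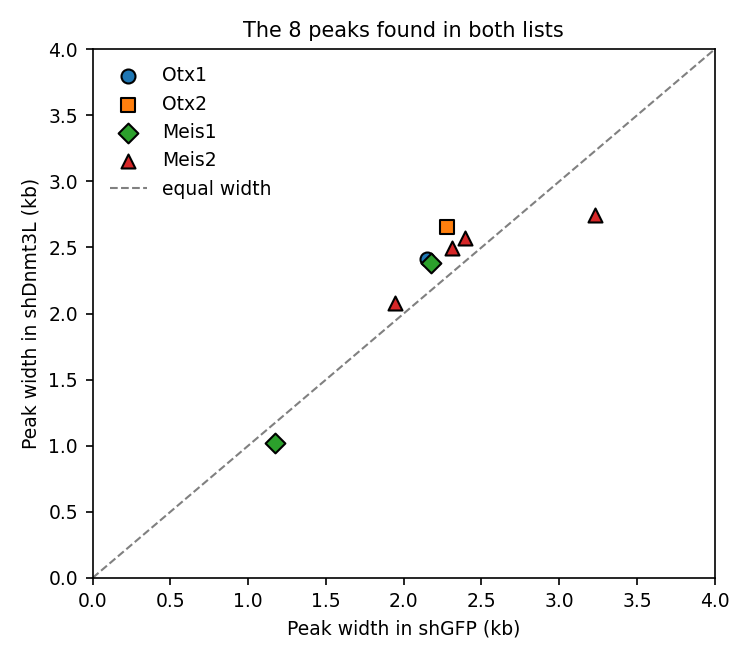
Width of each of the 8 shared peaks in shGFP (x axis, kb) and shDnmt3L (y axis, kb), with 1 symbol per gene and a dashed line of equal width. The points keep close to the line, 6 above it and 2 below, with width ratios from 0.848 to 1.17.

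In the intervals, peaks found only in shDnmt3L had a higher median width and score than such peaks in the whole list. The intervals were chosen on values from these lists, so nothing is read from the comparisons with the list. Their median width was 3754 bp, against 2474 bp for all shDnmt3L peaks without a shGFP peak, and their median score was 127 against 74.9. A score of 100 or more was reached by 14 of the 19, and by 33.9% of the 5724 unshared peaks of the list. Within the intervals, the 8 shared shDnmt3L peaks had a median width of 2456.5 bp (1017 to 2742 bp) and a median score of 90.7. The 2 sets overlapped in width, since 7 of the 19 unshared peaks were narrower than 2742 bp or as narrow. In the plot of width and score the widest shDnmt3L peak, 11617 bp, also had the top score, 878. Score did not follow width throughout: at Meis2 the 6377 bp peak scored 196 and the 4298 bp peak 265. No measure of this relation was computed. Peaks of 5 kb or more numbered 5 of 27, 1 at Otx1, 2 at Otx2 and 2 at Meis2, against 5.18% of the whole list and 0 in shGFP. None of the 5 had a shGFP peak, whereas 23.7% of all shDnmt3L peaks of that width had none.

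**Figure D3:**
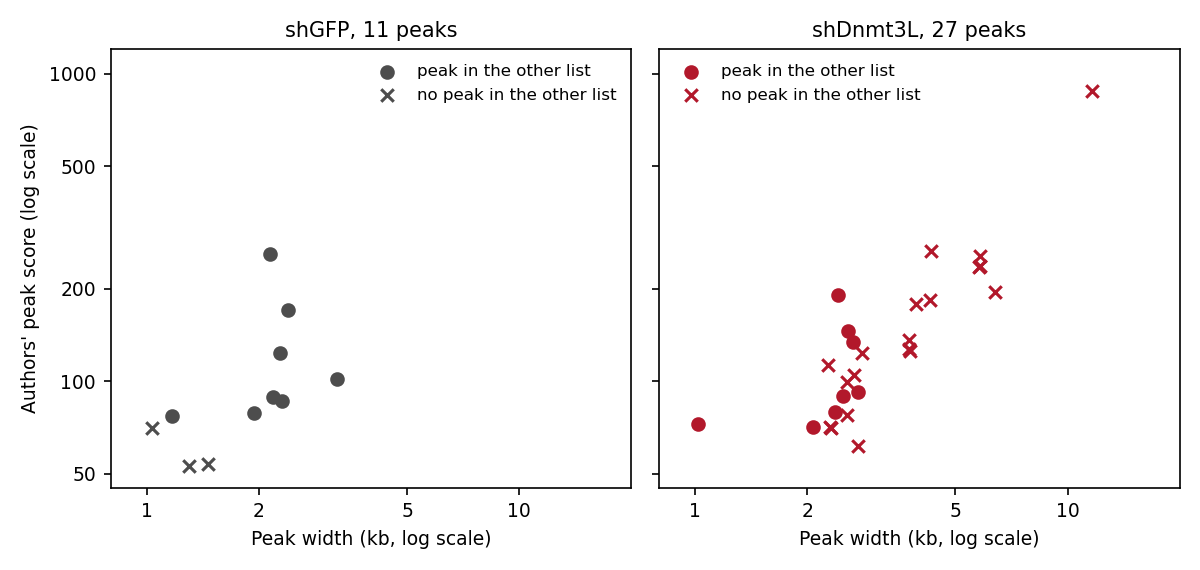
Width (x axis, kb, log scale) and the authors' score (y axis, log scale) of the 11 shGFP and 27 shDnmt3L peaks in the intervals, with circles for peaks that overlap the other list and crosses for those that do not. In shGFP the 3 crosses lie lowest in score, at 70.6 or below, and in shDnmt3L the crosses reach 11.6 kb and a score of 878.

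Most of the peaks found only in shDnmt3L stood in runs and more than 10 kb from any control peak. The intervals were chosen on values from these lists and peaks of a run are not independent. Nothing is therefore read from the comparisons with the whole list. Of the 19, 18 lay more than 10 kb from the nearest shGFP peak, as did 41% of the 5724 unshared peaks of the whole list. Their median distance was 32.2 kb, against 7.31 kb for the whole list, and the maximum was 93.6 kb. The exception was a 2552 bp peak at Meis2 (115698668 to 115701219), 593 bp from a shGFP peak. Another shDnmt3L peak lay within 1500 bp, a distance set after the values were seen, of 13 of the 19. The same held for 23.4% of all unshared peaks. When shDnmt3L peaks no more than the same 1500 bp apart were joined, 6 runs of 2 or more peaks formed, and 5 of them held no shGFP peak. These 5 were 17.7 kb long at Meis2, 15.0 kb at Otx1, 12.5 and 7.40 kb at Otx2 and 8.70 kb at Meis1, with 85.8 to 92.6% of their length under peaks. The sixth, 5.58 kb at Meis2, held the peak 593 bp from its shGFP neighbour. Runs were not counted over the whole list, so the 5 of 6 has no background and nothing is read from it.

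The surplus went past the edges of the interval at Otx2 and was not seen beside the other 3 intervals. In the 50 kb directly beside the Otx2 interval on both sides, shDnmt3L peaks covered 12.7 kb and shGFP peaks 7.02 kb. In the same stretches beside Meis2 the values were 2.28 and 4.11 kb, and beside Otx1 and Meis1 neither list had a peak. In the 500 kb on both sides of each interval the shDnmt3L list covered less than the shGFP list at every gene, with ratios of 0.628 around Otx1, 0.896 around Otx2, 0.451 around Meis1 and 0.584 around Meis2. The flanks held 46 shGFP peaks and 28 shDnmt3L peaks in all. Of these 28, 4 had no shGFP peak, against 12.6% of the whole shDnmt3L list. Unshared shGFP peaks in the flanks numbered 4 of 9 around Otx1 and 11 of 26 around Otx2. Around Meis1 they were 4 of 5 and around Meis2 3 of 6, against 25.5% of the whole shGFP list. Of the single sides, only the upper side of Otx2 had more in shDnmt3L, 15.5 kb against 11.1 kb. The lower side of Meis1 held no peak in either list. As a share of length, shDnmt3L peaks covered 14.8% of the Otx1 interval, 18.3% of Otx2, 7.56% of Meis1 and 12.6% of Meis2, and 0.922, 4.26, 0.385 and 0.710% of the flanks in the same order. In shGFP the intervals were covered to 1.95, 1.63, 1.83 and 4.21%, and the flanks to 1.47, 4.76, 0.853 and 1.22%. The control library was less covered inside the Otx2 interval than around it, while shDnmt3L was more covered inside than around at all 4 genes. Nothing is read from the contrast of inside and around, because the intervals were chosen on values from these lists.

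**Figure D4:**
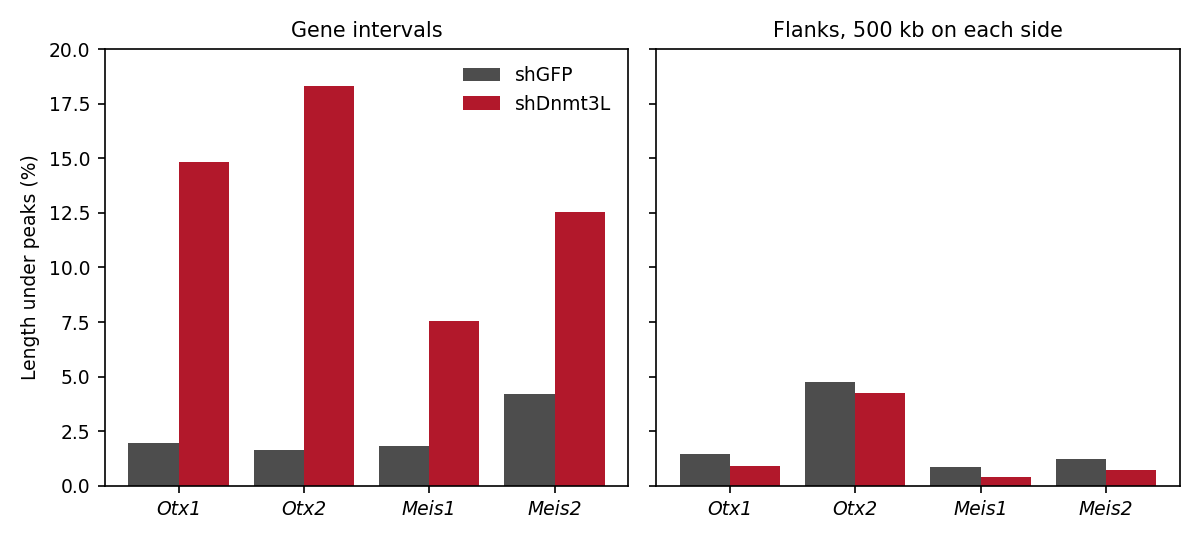
Percent of length under peaks in the 4 intervals (left) and in the 500 kb on both sides of each (right), with grey bars for shGFP and red bars for shDnmt3L. In the intervals the red bars stand at 7.56 to 18.3% and the grey at 1.63 to 4.21%, while in the flanks red is below grey at each gene.

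Beyond the 8 edges, the nearest shDnmt3L peak was shared at 7 and the nearest shGFP peak at 4. Many of these peaks were far from the edge: distances ran from 9.28 to 1434 kb in shDnmt3L and from 9.61 to 502 kb in shGFP. Over the whole lists, 12.6% of shDnmt3L and 25.5% of shGFP peaks were unshared. Outside Otx2 the nearest shDnmt3L peaks lay 9.28 kb below the interval (2426 bp, score 80.8, shared) and 18.1 kb above it (1750 bp, score 52.1, no shGFP peak). Outside Meis2 the nearest lay 12.7 kb below (2278 bp, score 85.0) and 146 kb above (2644 bp, score 192), both shared. At Otx1 they were 69.5 and 325 kb away and at Meis1 1434 and 72.2 kb away, also shared. Inside, the outermost shDnmt3L peaks were 3.03 to 44.0 kb from the lower edges and 6.04 to 51.6 kb from the upper edges.

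**Figure D5:**
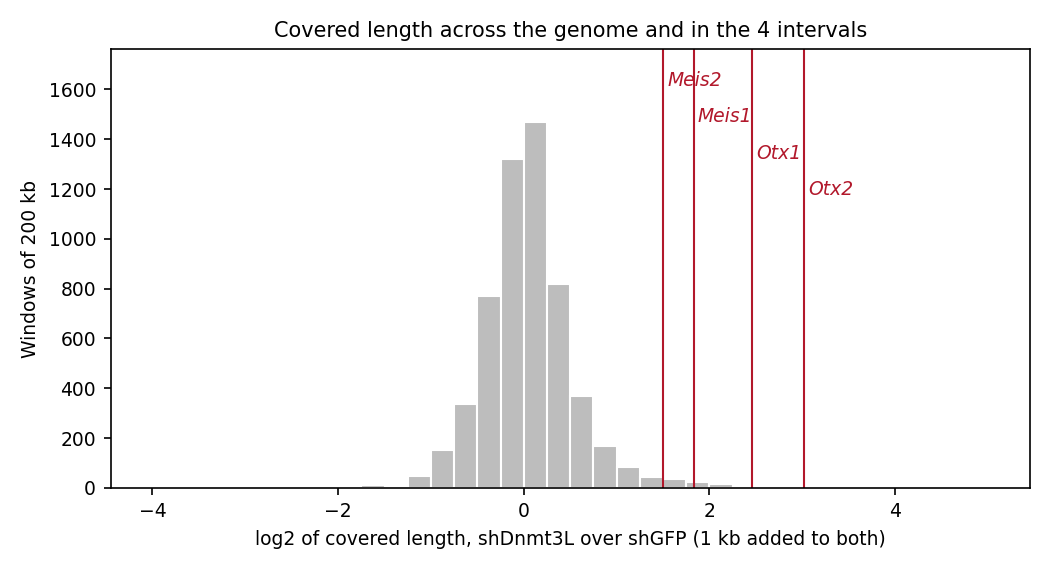
Number of 200 kb windows (y axis) by the log2 ratio of covered length, shDnmt3L over shGFP, with 1 kb added to both lengths (x axis), and red lines for the 4 intervals. The lines stand at 1.50 for Meis2, 1.83 for Meis1, 2.46 for Otx1 and 3.02 for Otx2, to the right of most windows. Interval lengths run from 110 to 300 kb and differ from that of the windows.

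The order of the 4 genes depended on the measure and on the setting. By ratio of covered length the order was Otx2, Otx1, Meis1 and Meis2, and by difference it was Meis2 (25.0 kb), Otx2 (23.4 kb), Otx1 (14.2 kb) and Meis1 (13.8 kb). With the intervals widened by 50 kb the ratios were 7.59 at Otx1, 4.14 at Meis1, 4.12 at Otx2 and 2.39 at Meis2, and the difference was higher at Otx2 (29.0 kb) than at Meis2 (23.2 kb). At scores of 100 or more the difference was higher at Meis1 (14.8 kb) than at Otx1 (14.2 kb). The widest shDnmt3L peak was 11.6 kb at Otx1, 6.38 kb at Meis2, 5.81 kb at Otx2 and 4.27 kb at Meis1, and the widest shGFP peak 2.15, 3.23, 2.28 and 2.18 kb. With no replicate, the spread that would tell neighbours in these orders apart is unknown. Read depth and any input control are not stated in the sources used here, and their part in these differences was not tested.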

How the data were processed

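Each of the 2 libraries had 1 deposited peak list with positions and a score per peak. The score was left as the authors deposited it. The lowest score was 50.01 in shGFP and 50 in shDnmt3L, which 10 times −log10 of a p of 1e-05 would give, a reading that rests on the values. Per the submitters' processing notes, CASAVA 1.8, Bowtie 0.12.7, MACS 1.4.1 and mm9 were used, with no roles given. Other deposited columns were peak positions, printed with the first base as 1. Depth is unknown.

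Peaks touching the 4 intervals were taken with pandas 2.3.3 and numpy 2.4.6 under Python 3.11.15, and lengths were clipped at interval edges. The members and lists were chosen with earlier results of these data known. Named were the widest and highest-scoring peak per gene and list, every peak of 5 kb or more and every unshared shDnmt3L peak of at least 3 kb. A few further peaks were named after their values were seen. Overlap and window code was tested on simulated data. The planned list of related genes was not placed, since no mm9 annotation was used here, and their proteins were not compared. The alternatives were a score of 100 or more, merging of peaks within 500 bp, lists of equal length, intervals widened by 50 kb, whole peaks by midpoint, scaling by list, other overlap rules and other windows.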

Additional observations from a re-analysis of the deposited data

How the results depend on the processing

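Of 56 alternative values, 50 stayed within 1.5 times the reported value, 6 moved beyond it and 0 reversed. That limit was a set cutoff and measures no spread between libraries, for which there were no replicates. All 24 alternative differences in covered length had shDnmt3L above shGFP and stayed within the limit. They reuse the same peaks in intervals chosen on this contrast, so their common direction is no separate support. The limit was applied to differences and not to ratios. The ratio went from 11.3 to 4.12 at Otx2 with widened intervals, and from 2.98 to 4.53 at Meis2 at scores of 100 or more. For Meis1 at scores of 100 or more no shGFP peak was left, so no ratio was formed. The share of windows at least 2-fold higher in shDnmt3L was 3.08% with windows of 500 kb, 10.4% at scores of 100 or more and 8.48% with lists of equal length, against 4.8%. The shGFP list alone is shortened by the last setting. Shared pairs wider in shDnmt3L numbered 3 of 3 at scores of 100 or more, against 6 of 8. These pair alternatives were chosen after seeing the data. The other 2 moved values were widest-peak differences, at Meis1 with scores of 100 or more (4.27 kb, no shGFP peak left) and at Meis2 with peaks within 500 bp merged (6.54 kb). For these 6 values the cause was not tested. The order of the genes changed with widened intervals and at the higher score, as given above. The number of unshared shDnmt3L peaks was 14 of 17 at the higher score, 17 of 25 with merging and 21 of 33 with widened intervals. Whole-list shares were not computed under these settings. These counts, like the 3 of 3 pairs above, thus have no background, and nothing is read from them. Leaving out shGFP peaks below the higher score can by itself leave a shDnmt3L peak unshared. No paired analysis was possible because there was 1 library per group. Unknown depth limits what an absent peak means: a region without a called peak may be enriched below the caller's threshold.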
